A study of Homo sapiens with 21 samples.

Results

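BJ cells, fibroblasts of human skin that stop dividing after many passages, were compared at passage P30 and at passage P3, to describe the passage at which cell cycle transcripts were lowest. The comparison used the 3 libraries labelled P30 and the 3 labelled P3, out of 21 libraries in the series, and the 15642 of 61544 genes that passed a filter on low counts. All 6 libraries came from untreated BJ cells of the same line, so the groups differ only in passage as far as the labels say. The 3 libraries each of P11, P24 and P33, also untreated, were fitted with them to place P30 among its neighbours, and the 6 libraries of P11 cells given DOX or DMSO were not used here. The labels do not say whether the libraries of a passage were separate cultures, and p-values therefore reflect the spread between these libraries only, which may be technical.

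Fibroblasts divide a limited number of times and then enter replicative senescence, a lasting arrest in which CDK inhibitors keep the retinoblastoma family of proteins active. In dividing cells, E2F factors switch on the genes of DNA replication late in G1 phase. Genes of mitosis follow through the MuvB complex with B-MYB and FOXM1, which meets DNA at a short element called the CHR. In arrested cells the DREAM complex, built on the same MuvB core, represses both groups of genes.

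RNA was measured by sequencing of poly(A)-selected RNA, and the reads were counted per gene over the whole gene, introns included. Levels are given as CPM, the counts divided by a scaled library size, and are compared between libraries, not between genes. Genes are described as rising or falling where the adjusted p of edgeR's quasi-likelihood test was under 0.05 (Benjamini-Hochberg, all 15642 genes). Totals were 12946375 to 19065832 counts at P30 and 20885657 to 26349740 at P3. On the first principal component, with 49.8% of the variance, the P30 libraries lay at 26.2 to 28.6. That is between P24, at -0.9 to 1.1, and P33, at 60 to 63. On the second, with 15.7% of the variance, the P30 libraries lay at -43 to -39.6 and all others at -6.1 or above. The P3 libraries also stood apart in their make-up, since lncRNA genes took 1.52% to 1.57% of counts at P30, 1.46% to 2.11% at P11, P24 and P33, and 0.945% to 0.962% at P3. MT-ATP8, which overlaps MT-ATP6, averaged 360 CPM at P30, between 450 and 550 CPM at P11, P24 and P33, and 43 CPM at P3. P30 was therefore also set against P11, and those counts stand beside each gene group. Of the genes described below, BUB1B, NEK2, MCM7, PRIM2, RB1, RBL1, RBL2, LIN52, LIN54, CCND3, CDK6, RMI1, CBX5, DNMT1, UHRF1, BAALC, FYB1, NTM, LTBP1, GDF5, SFRP1, CDC14A, ANO3, SMAD6, SMAD9, COL3A1, FBN2, PLAUR, JAM2, PREX2, HPSE2, GDF15, NPC1, RPL36, ESM1, GUCY1A2, SYT7 and TINAGL1 share their strand with an overlapping gene, to which part of their reads may have gone. All 16 fibroblast markers had reads, with a summed level of 28600 to 29400 CPM at P30 and 21600 to 22300 CPM at P3. Of the 16, 7 rose (43.8%) and 6 fell (37.5%) against P3, where 31% of all genes tested rose and 33.6% fell. Against P11, 9 rose (56.2%) and 5 fell (31.2%), where 23.7% of all genes tested rose and 25.1% fell. Among the 16, COL1A2 averaged 11000 CPM at P30 and 6040 CPM at P3, and VIM 2720 CPM at P30 and 4420 CPM at P3. Some defining markers of other cell types had no read in either group, namely KRT1 and KRT5 of keratinocytes, CDH5 of endothelium, CD3E, CD3D, MS4A1 and LYZ of leukocytes, TYR, MLANA, SOX10 and S100B of melanocytes and Schwann cells, and ADIPOQ of adipocytes. Other members of these lists had reads, and those given here were named after their values were seen. KRT10, TEK, VWF, PTPRC, CD4 and PPARG averaged 22.8, 2.05, 0.742, 0.752, 1.03 and 18.1 CPM at P30. At P3 they averaged 14.9, 3.11, 0.994, 0.325, 0.168 and 31.3 CPM.

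Between P30 and P3, 10098 genes (64.6%) passed the test, 4846 higher (31%) and 5252 lower (33.6%) at P30. At least 2-fold rises numbered 1446 (9.24%) and at least 2-fold falls 1076 (6.88%). Against P11, 48.8% of genes passed, 3707 higher (23.7%) and 3927 lower (25.1%), with 5.35% at least 2-fold higher and 5.68% at least 2-fold lower. Against P24, 40.2% passed, 3053 higher (19.5%) and 3234 lower (20.7%), with 2.37% and 4.85% at least 2-fold higher and lower. Against P33, 53.5% passed, 4025 higher (25.7%) and 4348 lower (27.8%), with 2.26% and 8.49% at least 2-fold higher and lower. Which direction had more genes depended on the scaling, since upper quartile scaling gave 5544 higher and 4558 lower against P3, while RLE scaling gave 3879 higher and 3795 lower against P11, 3228 and 3096 against P24, and 4295 and 4176 against P33. It also differed with overlap, since of the 10653 tested genes without a same-strand overlap 3056 were higher and 3809 lower against P3. Every count of a gene group below has to be read against these shares.

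The promoters of some of the genes that fell show the elements named above. The sequences come from RefSeq (GRCh38.p14) and run from 120 bases before to 30 bases after an annotated gene start, on the strand of the gene. Where a gene had several starts, the one with the most matches to the element was taken. The genes printed are examples that hold the element, not a sample of the lists. Capitals mark the CHR (TTTGAA) in the first set, of genes for mitosis, and an E2F site (TTTCCCGC, TTTGGCGC, TTTCGCGC or TTTGCCGC on either strand) in the second, of genes for DNA replication.
MKI67, chr10:128126394-128126543, minus strand: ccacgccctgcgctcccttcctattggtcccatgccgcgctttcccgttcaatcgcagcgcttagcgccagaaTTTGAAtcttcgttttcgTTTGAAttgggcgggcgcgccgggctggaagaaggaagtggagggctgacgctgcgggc
CDC20, chr1:43358861-43359010, plus strand: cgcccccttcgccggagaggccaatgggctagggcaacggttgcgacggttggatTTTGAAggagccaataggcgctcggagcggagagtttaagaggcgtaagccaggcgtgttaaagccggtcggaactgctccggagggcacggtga
BUB1B, chr15:40160949-40161098, plus strand: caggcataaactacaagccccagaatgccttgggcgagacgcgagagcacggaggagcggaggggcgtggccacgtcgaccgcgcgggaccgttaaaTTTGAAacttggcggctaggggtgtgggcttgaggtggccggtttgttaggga
MCM2, chr3:127598291-127598440, plus strand: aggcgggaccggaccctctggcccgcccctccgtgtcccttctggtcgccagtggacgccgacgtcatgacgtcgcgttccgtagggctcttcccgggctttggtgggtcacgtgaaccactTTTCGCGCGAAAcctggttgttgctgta
MCM7, chr7:100101368-100101517, minus strand: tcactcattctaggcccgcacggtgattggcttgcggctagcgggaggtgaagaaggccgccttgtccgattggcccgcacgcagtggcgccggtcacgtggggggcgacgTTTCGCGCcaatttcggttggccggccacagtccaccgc
GINS2, chr16:85688925-85689074, minus strand: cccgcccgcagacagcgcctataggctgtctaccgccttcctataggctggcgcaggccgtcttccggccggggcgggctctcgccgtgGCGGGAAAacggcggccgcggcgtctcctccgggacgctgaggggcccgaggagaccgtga
MKI67 carries the CHR in 2 places, starting 47 and 29 bases before the gene start, and BUB1B has it 23 bases before the start. The capitals of MCM2 hold 2 overlapping E2F sites, one on each strand.

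In windows of 300 bases (250 before and 50 after the start), the CHR stood in 34 of the 46 mitotic genes matched to the table (73.9%), against 1 of 35 replication genes (2.86%) and 18.2% of all 27305 genes listed. An E2F site stood in 20 of the 35 replication genes (57.1%), against 2 of the 46 mitotic genes (4.35%) and 3.99% of all genes. A gene was counted if any of its starts had the element. The kinetochore and deoxynucleotide lists, also of the cell cycle, lay between the mitotic and replication genes. They had the CHR in 13 of 27 (48.1%) and 2 of 8 genes (25%), and an E2F site in 3 (11.1%) and 3 (37.5%). The CCAAT box was in 37 of 46 mitotic (80.4%) and 21 of 35 replication genes (60%), against 39.7% of all genes. Among the 10131 tested protein-coding genes with a promoter in the table, 14.2% had the CHR and 6.46% an E2F site, the second a larger share than in the mitotic genes. Of 23 replication-dependent histone genes, whose transcripts did not fall, 7 had the CHR (30.4%) and 5 an E2F site (21.7%). These are matches of letters on either strand, not measured binding.

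Because P30 was taken up for its low cell cycle transcripts, the values of this section describe that choice and carry no further weight. In bulk RNA, fewer cycling cells and less RNA per cycling cell cannot be told apart. Of 137 tested genes in 4 cell cycle lists, 134 were lower at P30 than at P3 and 1 was higher, and 130 were lower than at P11. Their median log2 ratio of mean CPM to P3 was -0.41 at P11, -0.67 at P24, -1.39 at P30 and -0.89 at P33. The mean was lowest at P30 in 127 of the 137, against 18.7% of all genes. P30 was lower than P24 for 127 of them and lower than P33 for 107, with 4 higher than at P33.

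**Figure D1:**
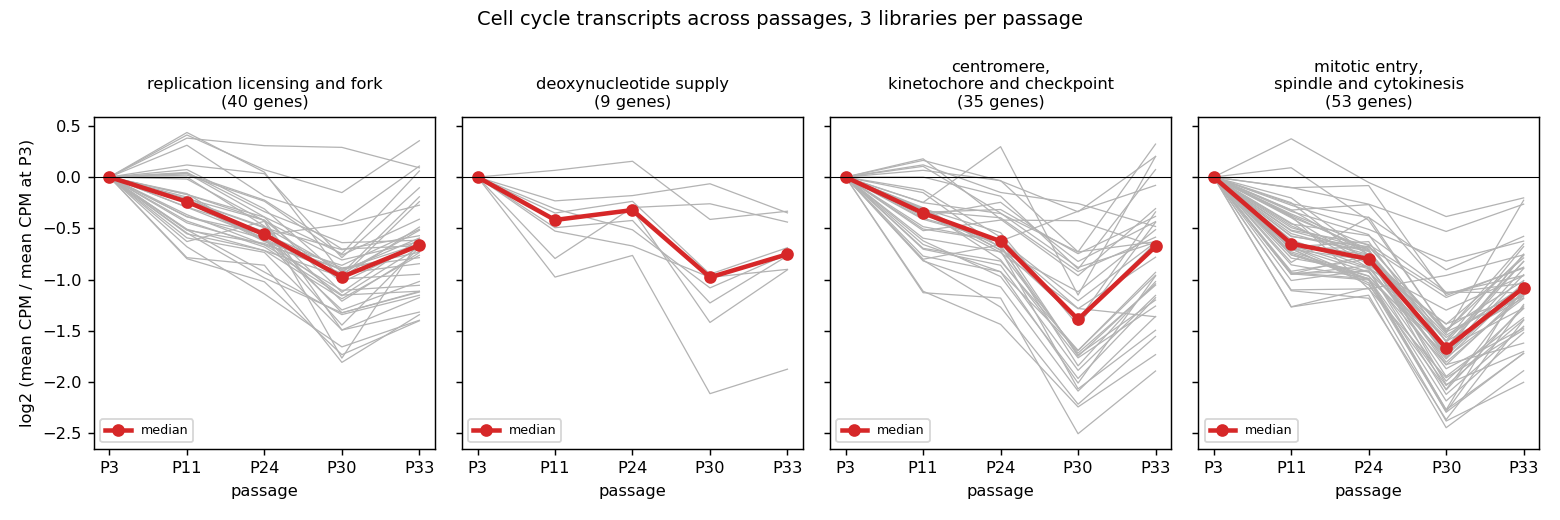
Log2 ratio of each gene's mean CPM to its mean CPM at P3 (vertical axis) across the 5 passages (horizontal axis, 3 libraries per passage) for 4 cell cycle lists. Grey lines are genes and the red line is their median, which is lowest at P30 in each list.

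Genes for mitotic entry, the spindle and cytokinesis had the largest median fall of the 4 lists. All 53 tested were lower at P30 than at P3, 48 of them by at least 2-fold, with a median log2 fold change of -1.66 against -0.01 over all genes tested. Against P11 all 53 were lower as well (median -1.07). MKI67, the Ki-67 protein that coats mitotic chromosomes and marks cycling cells, had 105, 113 and 111 CPM at P30 and 568, 482 and 545 CPM at P3. The P30 libraries lay below every library of the other 4 passages. The log2 fold change was -2.28 (SE 0.0635) against P3 and -0.55 (SE 0.0629) against P33. CDC20, the activator of the anaphase-promoting complex, had 6.68, 7.61 and 6.54 CPM at P30 against 39.1, 34.2 and 40 CPM at P3, a log2 fold change of -2.43 (SE 0.0994). KIF20A, a kinesin of cytokinesis, had 21.5, 21.5 and 22.2 CPM at P30 against 114, 108 and 117 CPM at P3. NEK2, a centrosome kinase, averaged 6.69 ± 0.44 CPM at P30 and 34.5 ± 1.2 CPM at P3 (SD, n = 3 each). No library of P30 reached the level of any P3 library for these genes. CCNB1, the mitotic cyclin B1, averaged 145, 67.6, 68.1, 37.3 and 51.6 CPM at P3, P11, P24, P30 and P33, a drop between P3 and P11, a level stretch to P24, and the lowest value at P30.

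All 35 tested genes of the centromere, kinetochore and spindle checkpoint were also lower at P30 than at P3 (median -1.39), and 32 were lower than at P11. CENPF, an outer kinetochore protein, had 68.4, 76.4 and 71.5 CPM at P30 against 332, 331 and 342 CPM at P3. BUB1B, the checkpoint protein BubR1, had 12.3, 13.2 and 13.9 CPM at P30 against 57.8, 50.6 and 58.6 CPM at P3. Neither overlapped between the groups. SPC25, of the NDC80 complex, had the largest fall of the list, with 2.82 ± 0.67 CPM at P30 and 16 ± 1.1 CPM at P3 (SD, n = 3 each). The smallest was that of MIS18A, a centromere assembly factor named after its values were seen, with a log2 fold change of -0.28 and libraries that overlap between P30 and P3.

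DNA replication genes fell by less. Of 40 genes for origin licensing and the replication fork, 38 were lower at P30 than at P3 and PRIM2, a primase subunit named after its values were seen, was higher (log2 fold change 0.29). PRIM2 shares its strand with an overlapping gene, and of the 28 members without such overlap 27 were lower and none higher. Against P11, 38 were lower and none higher. The median was -0.97, and 18 of the 40 fell by at least 2-fold. MCM2, a subunit of the replicative helicase, had 25.8, 24.7 and 25.4 CPM at P30 and 77.4, 75.2 and 86.8 CPM at P3, a log2 fold change of -1.65 (SE 0.0638). MCM7, of the same helicase, had 36.8, 36.1 and 35.4 CPM at P30 and 124, 120 and 117 CPM at P3. GINS4, of the GINS complex that joins the helicase, had 6.79, 7.28 and 6.38 CPM at P30 and 25.2, 21.8 and 22.6 CPM at P3. Against P33, 23 of the 40 replication genes were lower at P30 and 1 was higher, and 50 of the 53 mitotic genes were lower. Of 9 genes for deoxynucleotide supply, 8 were lower than at P3 (7 lower and 2 higher than at P11). TK1, thymidine kinase, had 15.1, 15.9 and 13.9 CPM at P30 and 61.3, 69.1 and 64.4 CPM at P3. RRM2, the regulated subunit of ribonucleotide reductase, averaged 135, 101, 108, 50.5 and 72.1 CPM at P3, P11, P24, P30 and P33.

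**Figure D2:**
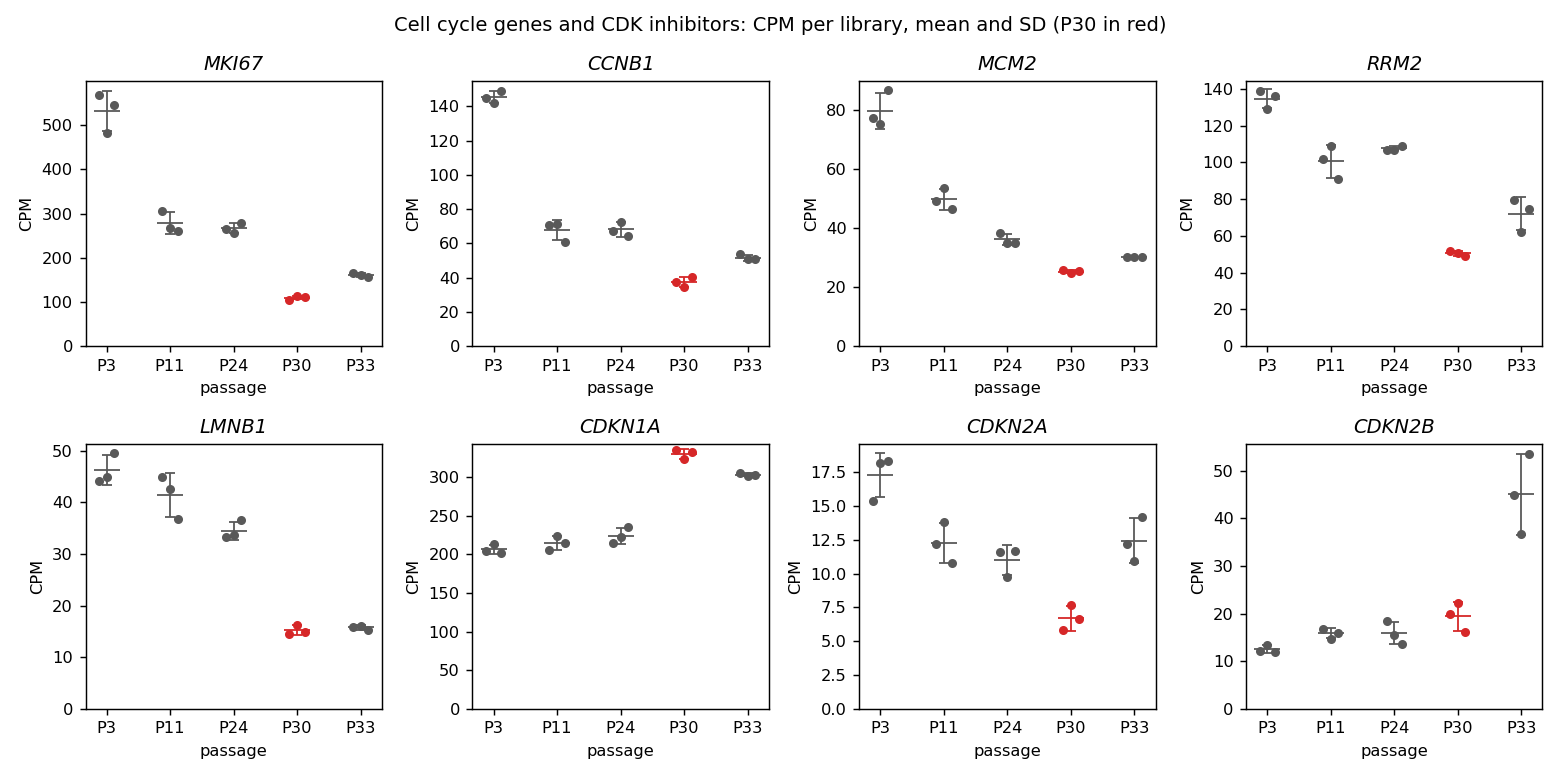
CPM of 8 genes in each library (points, linear axes from 0) by passage, with the mean and SD of 3 libraries per passage and P30 in red. MKI67, CCNB1, MCM2 and RRM2 are lowest at P30, LMNB1 is low at P30 and P33, CDKN1A is highest at P30, CDKN2A is lowest there and CDKN2B is highest at P33.

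The regulators of these genes were mixed. Of 24 tested RB, E2F, MuvB and G1 cyclin genes, 15 fell and 5 rose at P30 against P3 (median -0.51), and 12 fell and 6 rose against P11. FOXM1, the transcription factor of G2 and M phase genes, had 21.9, 23.3 and 25 CPM at P30 and 67.7, 74.8 and 72 CPM at P3 (log2 fold change -1.62, SE 0.07). MYBL2, which encodes B-MYB, had 14.2, 15.6 and 14.4 CPM at P30 and 38.8, 38.7 and 38.3 CPM at P3. CCNE2, cyclin E2, had 7.08, 7.94 and 5.26 CPM at P30 and 19.1, 16.8 and 19.6 CPM at P3 (log2 fold change -1.42, SE 0.111). RBL1, the retinoblastoma relative p107, averaged 15 ± 2.1 CPM at P30 and 31.4 ± 0.24 CPM at P3. RB1 itself had 93.8, 94.9 and 99.9 CPM at P30 and 94.5, 102 and 100 CPM at P3, which overlap, and did not pass (log2 fold change -0.04, SE 0.0489). CCND1, cyclin D1, did not pass either (-0.05, SE 0.0541), and both signs turned under another scaling. RBL2, the retinoblastoma relative p130 of the DREAM complex, rose by 0.28 on the log2 scale (SE 0.0527) against P3 and was lower than at P11 (-0.15). The 5 that rose were CDK6, CCND3, LIN54, RBL2 and LIN52. All 5 share their strand with an overlapping gene, so their counts may be split. Of the 15 members without such overlap, 12 fell and none rose against P3. CDK6, a partner of the D-type cyclins, averaged 176 ± 5.8 CPM at P30 and 93.1 ± 6.5 CPM at P3.

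CDK inhibitors went both ways, 2 rising and 4 falling of 7 against P3, and 2 and 3 against P11. CDKN1A, the p53-induced inhibitor p21, had 335, 323 and 332 CPM at P30 and 204, 213 and 202 CPM at P3. All P30 libraries were above all libraries of the other passages. Its log2 fold change was 0.68 (SE 0.046) against P3 and 0.12 against P33, and the second value did not pass under upper quartile scaling, with only genes above 10 CPM, or without P30 replicate 1. CDKN2A, the locus of p16 and ARF, had 5.82, 7.66 and 6.62 CPM at P30 and 15.4, 18.2 and 18.3 CPM at P3 (log2 fold change -1.36, SE 0.121). Its mean was lowest at P30 among the 5 passages, at 17.3, 12.3, 11, 6.7 and 12.4 CPM at P3, P11, P24, P30 and P33. CDKN2B, p15, had 19.9, 22.3 and 16.2 CPM at P30 and 12.2, 13.5 and 12 CPM at P3, a rise of 0.64 (SE 0.127), and stood far below its P33 mean of 45.1 ± 8.4 CPM. CDKN2C, p18, and CDKN1B, p27, fell by 0.45 and 0.39 on the log2 scale against P3. CDKN2D, p19, named after its values were seen, fell at a low level, with 1.71 ± 0.8 CPM at P30 and 3.9 ± 0.57 CPM at P3. CDKN1C, p57, had 0.571, 0.543 and 0.638 CPM at P30 and 0.326, 0.32 and 0.358 CPM at P3 and did not pass (adjusted p = 0.0982, edgeR).

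Genes of homologous recombination and the Fanconi pathway fell with the replication genes. Of 26 tested, 21 fell and RMI1 alone rose at P30 against P3 (median -0.97), and 22 fell against P11. RMI1 shares its strand with an overlapping gene, and of the 17 members without such overlap 15 fell and none rose against P3. POLQ, the polymerase of theta-mediated end joining, had 7.42, 6.58 and 8.45 CPM at P30 and 19.8, 20.4 and 21.3 CPM at P3. XRCC3, a protein of homologous recombination, averaged 2.09 ± 0.22 CPM at P30 and 6.82 ± 1.2 CPM at P3. Against P33, 22 of the 26 were lower at P30 and none higher.

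In the list of nuclear lamina and chromatin proteins, 25 of 28 fell and CBX5 rose (median -0.87), and 20 fell and 2 rose against P11. CBX5 shares its strand with an overlapping gene, and of the 18 members without such overlap 17 fell and none rose against P3. LMNB1, lamin B1, whose loss marks senescent cells, had 14.4, 16.3 and 14.9 CPM at P30 and 44.2, 45 and 49.6 CPM at P3 (log2 fold change -1.60, SE 0.0756). Its means were 46.3, 41.5, 34.5, 15.2 and 15.8 CPM at P3, P11, P24, P30 and P33. The difference between P30 and P33 did not pass the test (-0.05, SE 0.0854, edgeR adjusted p = 0.651). DNMT1, the maintenance DNA methyltransferase, had 111, 108 and 110 CPM at P30 and 326, 287 and 299 CPM at P3. UHRF1, which brings DNMT1 to replicating DNA, averaged 32.8 ± 1.3 CPM at P30 and 98.6 ± 4.3 CPM at P3, and HMGB2, a chromatin protein, 43.7 ± 2.9 CPM at P30 and 130 ± 7.3 CPM at P3.

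Transcripts of replication-dependent histones, which normally lack a poly(A) tail and rise in S phase, went the other way. Of 57 listed, 24 had enough reads to be tested. At P30 16 of these rose and none fell against P3 (median 0.85), and 19 rose against P11. H2AC6 had 77.8, 77.6 and 82.2 CPM at P30 and 26.1, 26.3 and 25.4 CPM at P3 (log2 fold change 1.61, SE 0.0628). H2BC21 had 23.3, 24.2 and 19.5 CPM at P30 and 6.35, 6.48 and 6.55 CPM at P3. The groups did not overlap in either gene. Against P33, 14 of the 24 were lower at P30 and 1 was higher.

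**Figure D3:**
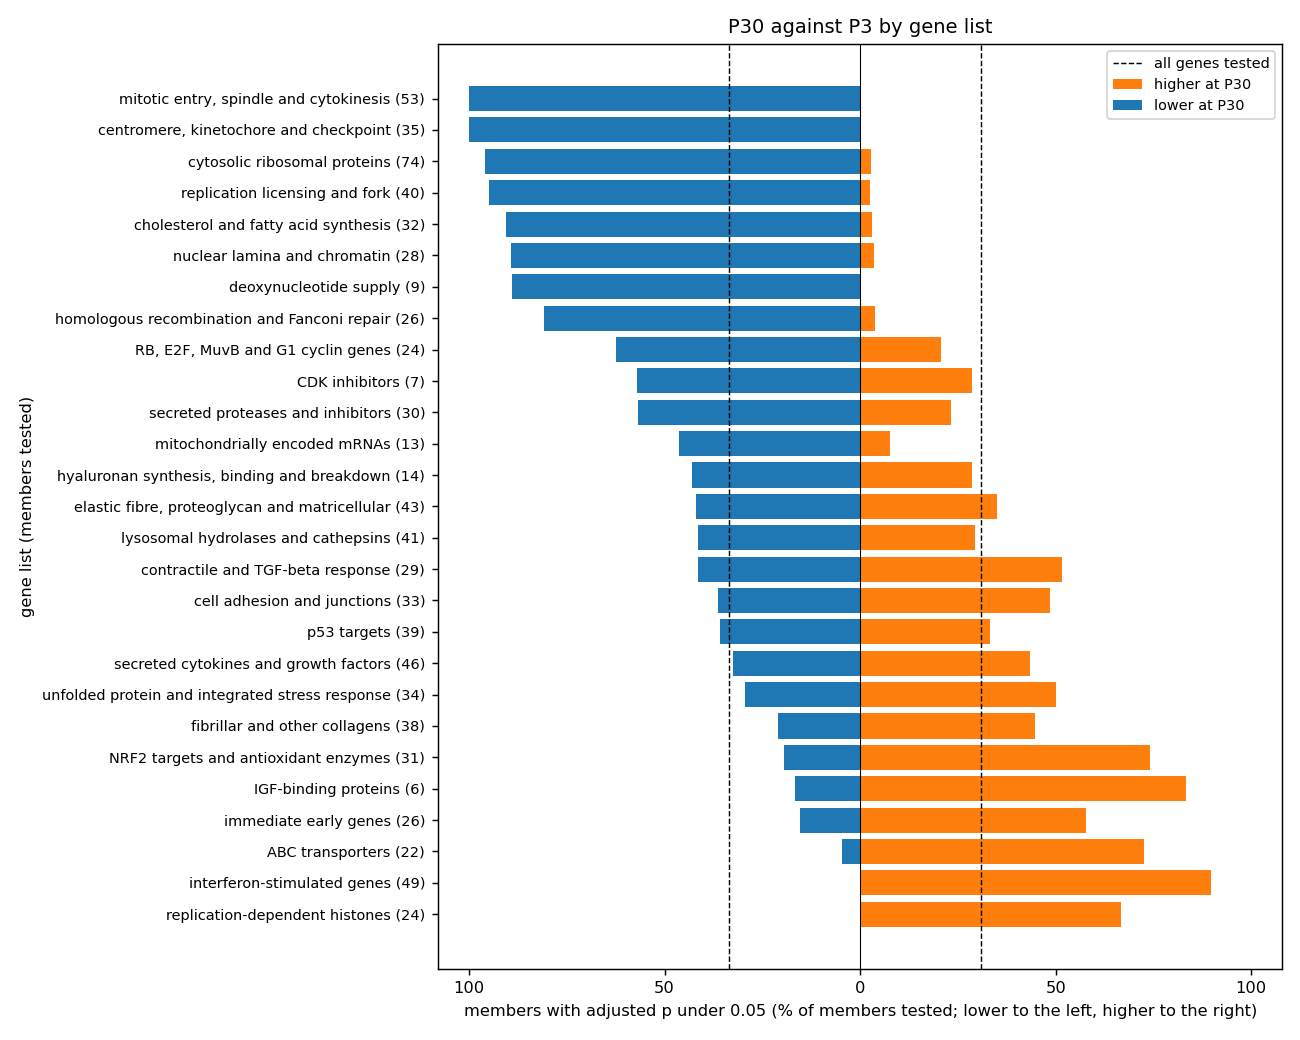
Share of the tested members of each gene list (percent, horizontal axis) that were lower (blue, to the left) or higher (orange, to the right) at P30 than at P3. Dashed lines mark the same shares over all genes tested, 33.6% lower and 31% higher.

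A total of 835 genes (5.34%) were lower at P30 than at each of P3, P11, P24 and P33, and 898 (5.74%) were higher than at each. The 4 comparisons share the P30 libraries. Without P3, 1047 genes (6.69%) were lower than at each of the other 3 passages. Of the 137 tested genes of the 4 cell cycle lists, 104 were among the 835, against 5.34% of all genes. None was among the 898, against 5.74% of all genes. P30 was taken up for its low cell cycle transcripts, so both counts describe that choice and carry no further weight.

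Among the low point genes, the 5 with the largest margin to their nearest passage were DENND2A, BAALC, RGCC, FYB1 and NTM. RGCC, a regulator of cell cycle progression, had 0.913, 0.707 and 1.04 CPM at P30 and 12.3, 13.5 and 11.7 CPM at P3 (log2 fold change -3.84, SE 0.192, edgeR adjusted p = 2.85e-15). Its mean at P33 was 4.99 ± 1.3 CPM. NTM, a neural adhesion protein anchored in the membrane, had 3.25, 2.88 and 2.47 CPM at P30 and 32.8, 36.2 and 38.8 CPM at P3. DENND2A, which encodes a DENN-domain exchange factor for Rab proteins, had 1.94, 1.03 and 0.877 CPM at P30 and 14.9, 11.7 and 16.4 CPM at P3. None of the 3 overlapped between the groups. BAALC averaged 0.344 ± 0.13 CPM at P30 and 3.87 ± 0.65 CPM at P3, and FYB1, an adaptor protein, 0.918 ± 0.2 CPM at P30 and 8.18 ± 1 CPM at P3.

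MMP1, the interstitial collagenase, was one of the 10 largest falls among genes with at least 5 CPM at P3. It had 122, 140 and 126 CPM at P30 and 1300, 1420 and 1390 CPM at P3, a 10.6-fold difference (log2 fold change -3.41, SE 0.0771, edgeR adjusted p = 4.64e-22). Its means were 1370, 1220, 387, 129 and 291 CPM at P3, P11, P24, P30 and P33, so P30 held the lowest level. RGCC, NTM and DENND2A, given above, fell by more than MMP1 did. Other large falls were NFE2L3, a transcription factor of the CNC family, OLFML1, GDF5, a BMP-family ligand, C1orf115 and PENK, the precursor of enkephalins. C1orf115 had 4.51, 4.29 and 3.99 CPM at P30 and 41.2, 38.7 and 42.9 CPM at P3. PENK had 4.22, 2.72 and 3.51 CPM at P30 and 33.2, 28.2 and 34.1 CPM at P3. Both were higher at P30 than at P33, so P30 was not their low point. NFE2L3 averaged 1.22 ± 0.26 CPM at P30 and 14 ± 1.2 CPM at P3, and OLFML1 0.909 ± 0.41 CPM at P30 and 9.79 ± 1 CPM at P3. Neither of these 2 passed the test between P30 and P33.

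LTBP1, which anchors latent TGF-beta in the matrix, was another low point gene. It had 39.2, 41.8 and 41.1 CPM at P30 and 202, 202 and 198 CPM at P3 (log2 fold change -2.30, SE 0.0497) and averaged 125 CPM at P33. Of 14 genes for hyaluronan, 4 rose and 6 fell against P3 (5 and 4 against P11). HAS2, a hyaluronan synthase, had 2.17, 1.85 and 2.31 CPM at P30 and 16.3, 17 and 17.9 CPM at P3. HMMR, a hyaluronan receptor that also works on the mitotic spindle, had 8.79, 10.5 and 8.13 CPM at P30 and 41.4, 45.5 and 45.3 CPM at P3. HAS3, another synthase, was opposite to HAS2, with 5.48, 4.78 and 6.38 CPM at P30 and 0.937, 0.8 and 0.921 CPM at P3. None of these groups overlapped. SFRP1, a secreted WNT antagonist, and MT2A, a metallothionein, were named after their values were seen. SFRP1 averaged 1000, 657, 959, 213 and 523 CPM, and MT2A 226, 212, 171, 59.9 and 147 CPM, at P3, P11, P24, P30 and P33.

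**Figure D4:**
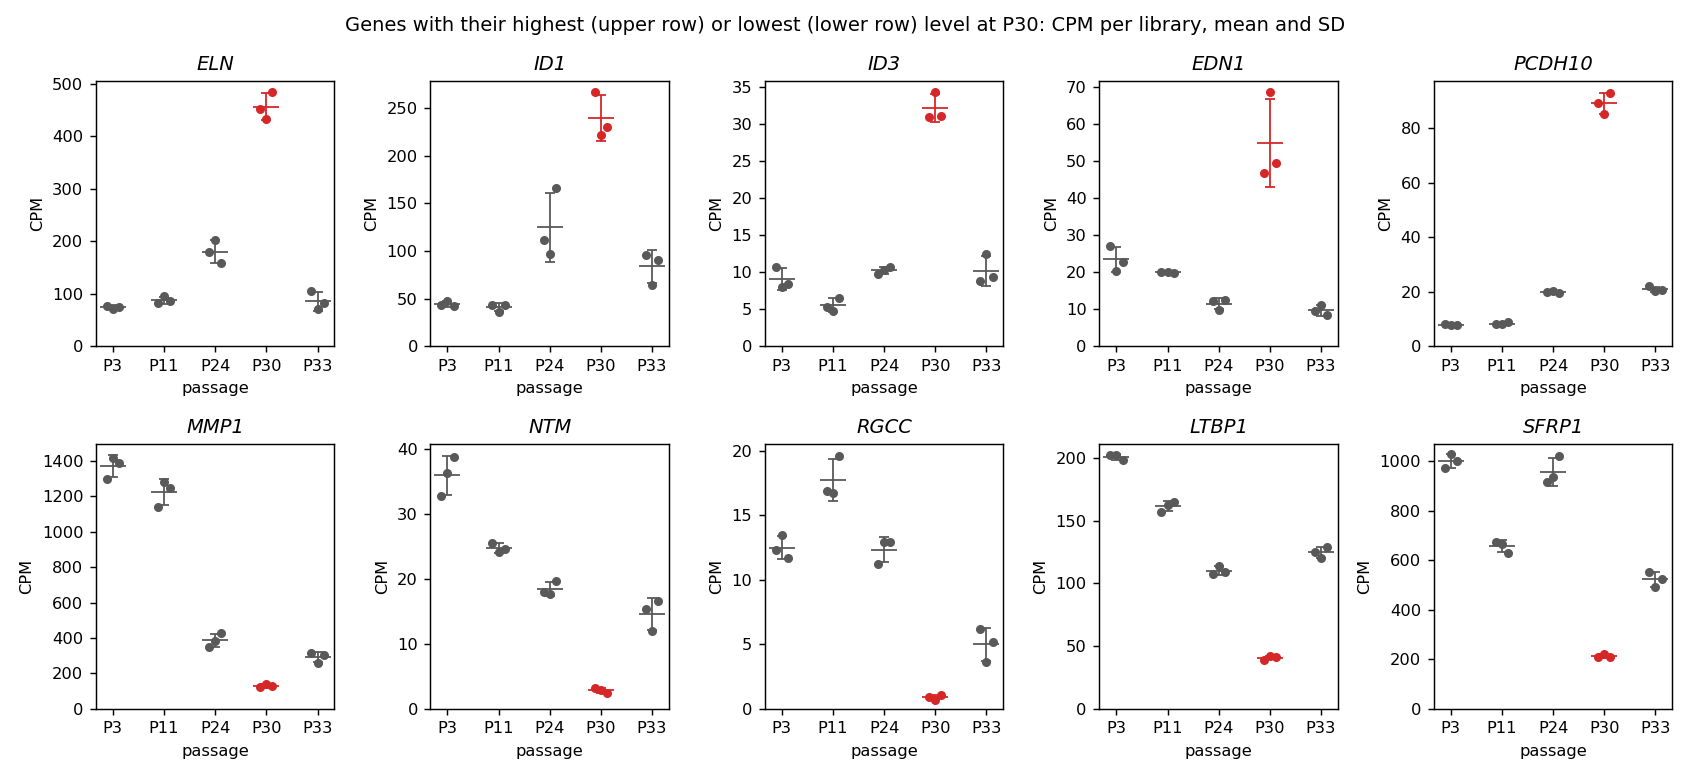
CPM in each library (points, linear axes from 0) by passage with the mean and SD of 3 libraries, for 5 genes highest at P30 (upper row) and 5 lowest at P30 (lower row), P30 in red. In every panel the P30 libraries lie beyond all libraries of the other passages.

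The 5 high point genes with the largest margin were SAMD11, PCDH10, CDC14A, ANO3 and ID3. PCDH10, a protocadherin, had 89.2, 85.2 and 92.9 CPM at P30 and 7.98, 7.68 and 7.63 CPM at P3, an 11.4-fold rise (log2 fold change 3.52, SE 0.0632, edgeR adjusted p = 1.02e-23). Its mean at P33 was 20.9 ± 0.93 CPM. SAMD11, a SAM-domain protein, had 13.3, 12.8 and 15 CPM at P30 and 1.06, 0.72 and 0.614 CPM at P3. ANO3, of the anoctamin family, had 87.9, 87.1 and 94.6 CPM at P30 and 14.3, 12.4 and 13.1 CPM at P3. CDC14A, a phosphatase that opposes cyclin-dependent kinases, had 17.1, 15.8 and 18.4 CPM at P30 and 4.03, 3.8 and 4.15 CPM at P3. In all 4 genes the P30 libraries lay above all libraries of the other passages.

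In the list of contractile and TGF-beta response genes, many were highest at P30. Against P3 15 of 29 rose and 12 fell (median 0.28), and 21 rose and 6 fell against P11. By at least 2-fold, 8 rose and 5 fell against P3, and log2 fold changes ran from -3.7 to 2.66. The genes given below were all higher at P30 than at P3, so they do not stand for the list. CNN1 is the only contractile protein among them. Against P33, 22 were higher at P30 and 4 lower, and 12 of the 29 were higher than in every other passage. The ID proteins are inhibitors of basic helix-loop-helix factors. ID1 had 267, 222 and 230 CPM at P30 and 42.7, 47.4 and 42.6 CPM at P3 (log2 fold change 2.44, SE 0.142). ID3 had 30.9, 34.3 and 31.1 CPM at P30 and 10.7, 7.92 and 8.44 CPM at P3, and its means were 9.01, 5.53, 10.3, 32.1 and 10.1 CPM at P3, P11, P24, P30 and P33. SMAD7, an inhibitory SMAD, had 37.9, 37.6 and 34 CPM at P30 and 11.7, 11.3 and 12.2 CPM at P3. Each was above all libraries of the other passages. ID2, ID4, SMAD6, SMAD9 and the transcription factor ATOH8, named after their values were seen, had means of 130, 10, 26.4, 31.9 and 48.4 CPM at P30. At P3 they had 45.4, 2.38, 11.6, 7.41 and 17.3 CPM. ITGA11, a collagen-binding integrin, had 334, 311 and 356 CPM at P30 and 53, 51.3 and 54.1 CPM at P3 (log2 fold change 2.66, SE 0.0559). EDN1, the vasoconstrictor endothelin 1, had 46.8, 68.5 and 49.3 CPM at P30 and 27.1, 20.3 and 22.7 CPM at P3, and every P30 library was above every P3 library. CNN1, the contractile protein calponin 1, had 93.6, 91 and 95.4 CPM at P30 and 68.1, 64.2 and 63.8 CPM at P3.

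Smooth muscle and pericyte markers, a list that shares CNN1 with these genes, went both ways. Of 8 tested, 3 rose and 5 fell against P3, as also against P11, with a summed level of 266 to 277 CPM at P30 and 277 to 283 CPM at P3. Their log2 fold changes against P3 ran from -3.7 to 1.29, with 1 at least 2-fold higher and 2 at least 2-fold lower. MYH11 and DES, muscle proteins of the list, averaged 0.127 and 0.209 CPM at P30 and 0.118 and 0.504 CPM at P3. ACTG2, another member named after its values were seen, averaged 0.256 CPM at P30 and 3.28 CPM at P3. The part of such cells in the result was not tested.

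The matrix list was split. ELN, the precursor of elastic fibres, had 451, 433 and 484 CPM at P30 and 77.1, 71.4 and 75.3 CPM at P3, a 6.11-fold rise (log2 fold change 2.61, SE 0.0981, edgeR adjusted p = 8.8e-18). Its means were 74.6, 87.4, 180, 456 and 85.4 CPM at P3, P11, P24, P30 and P33, so the rise peaked at P30. Of 43 elastic fibre, proteoglycan and matricellular genes, 15 rose and 18 fell against P3, and 17 and 19 against P11. Among those that fell, FBN2, fibrillin 2, had 165, 167 and 185 CPM at P30 and 578, 575 and 558 CPM at P3, and PRELP, a small leucine-rich proteoglycan, 5.99, 7.77 and 7.74 CPM at P30 and 34.5, 33.8 and 33.9 CPM at P3. Of 38 collagens and collagen-modifying enzymes, 17 rose and 8 fell (22 and 8 against P11). COL1A2 and COL3A1, chains of the main fibrillar collagens, averaged 11000 ± 240 and 1700 ± 53 CPM at P30 and 6040 ± 100 and 696 ± 18 CPM at P3. Both were higher at P30 than at every other passage. COL4A5, of basement membranes, and COL8A1, a short-chain collagen, rose by 2.18 and 2.35 on the log2 scale, while COL6A2, of beaded filaments, fell by 1.36.

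A2M, the broad protease inhibitor alpha-2-macroglobulin, was among the genes most above P33. It had 413, 413 and 463 CPM at P30, against 74.5, 57.1 and 64.6 CPM at P33 and 55.1, 55.7 and 55.8 CPM at P3. Among secreted proteases and their inhibitors 17 of 30 fell and 7 rose against P3 (15 and 9 against P11). TFPI2, a protease inhibitor of the matrix, had 6.9, 5.76 and 7.26 CPM at P30 and 54.5, 55.5 and 58.2 CPM at P3. PLAUR, the urokinase receptor, had 35.7, 32.4 and 32.6 CPM at P30 and 94.1, 111 and 107 CPM at P3. TIMP3, an inhibitor of matrix metalloproteinases, rose and had 2890, 2580 and 3100 CPM at P30 and 1060, 1010 and 1030 CPM at P3. MMP1, TFPI2 and PLAUR were each lower at P30 than at P33, where 21 of the list were higher than at P30.

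ABCB1, or P-glycoprotein, which pumps drugs out of cells, had the largest rise among genes with at least 5 CPM at P30. It had 24.8, 24.1 and 25.8 CPM at P30 and 0.692, 0.56 and 0.409 CPM at P3 (log2 fold change 5.45, SE 0.148, edgeR adjusted p = 1.14e-20). The gene lies at chr7:87503017-87713323 on the files' GRCh38 coordinates. RUNDC3B, at chr7:87627548-87832296 on the other strand, overlaps it and rose by 5.43. Reads of such a pair are told apart only by strand. ABCB1 was higher still at P33, with 50.4 ± 5.7 CPM. Of 22 ABC transporters 16 rose and 1 fell against P3, and 10 rose and 5 fell against P11. ABCB4, a phospholipid transporter, and ABCA1, a cholesterol exporter, averaged 22.7 ± 1.5 and 134 ± 4.2 CPM at P30 and 5.24 ± 0.78 and 63.7 ± 3.6 CPM at P3.

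JAM2, a junctional adhesion molecule, had 19.3, 13.6 and 24.8 CPM at P30 and 0.774, 0.8 and 0.358 CPM at P3, a rise of 4.82 on the log2 scale (SE 0.219). PREX2, an exchange factor for Rac, had 56.7, 59 and 60.3 CPM at P30 and 1.87, 2.32 and 2.25 CPM at P3. LYPD6B, a Ly6-family protein, had 22.9, 22.4 and 27.9 CPM at P30 and 0.978, 1.04 and 1.18 CPM at P3. PREX2 and LYPD6B were higher at P30 than at P33, while JAM2 was lower at P30 than at P33. METTL24 had 5.08, 5.16 and 6.06 CPM at P30 and 0.326, 0.24 and 0.358 CPM at P3, and HPSE2, a heparanase relative, 12, 11 and 14.1 CPM at P30 and 0.774, 0.72 and 0.972 CPM at P3. Of 33 adhesion and junction genes, 16 rose and 12 fell (18 and 9 against P11). CNTN3, a contactin, fell against P3, with 2.97, 2.5 and 2.87 CPM at P30 and 23.1, 21.8 and 22.8 CPM at P3.

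Interferon-stimulated genes rose in nearly the whole list. Of 49 tested, 44 rose and none fell at P30 against P3 (median 1.30), and 42 rose and 2 fell against P11. Against P24, 30 rose and none fell. The summed level of the listed genes was 6450 to 7560 CPM at P30 and 2570 to 3170 CPM at P3. It varied widely between libraries of one passage, from 2760 to 5120 CPM at P11 and from 3470 to 5700 CPM at P24. BST2, the antiviral protein tetherin, had 19.3, 22 and 15.1 CPM at P30 and 0.855, 0.76 and 1.28 CPM at P3 (log2 fold change 4.32, SE 0.271). RSAD2, viperin, had 16.5, 22.2 and 32.9 CPM at P30 and 1.34, 0.72 and 1.54 CPM at P3. IFI44L had 96.1, 119 and 125 CPM at P30 and 7.74, 6.4 and 10.2 CPM at P3. OAS1, which makes the activator of RNase L, had 41, 52.7 and 61.4 CPM at P30 and 3.87, 3.72 and 6.29 CPM at P3. All P30 libraries lay above all P3 libraries in these 4 genes. Between P30 and P33 the list was close to level: 10 of 49 were higher at P30 and 6 lower, with a median of 0.01. BST2 was the exception among the 4 genes named, with 6.2, 7.84 and 6.68 CPM at P33. Leukocyte markers summed to 2.99 to 3.35 CPM at P30 and 1.48 to 1.67 CPM at P3, and their part in the result was not tested.

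**Figure D5:**
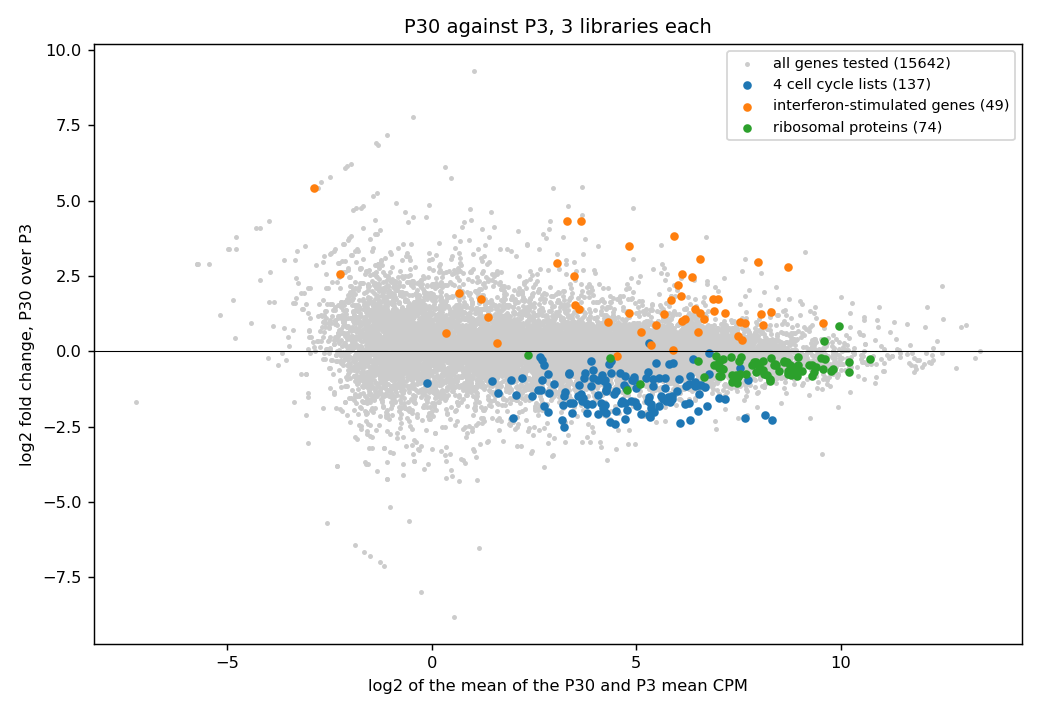
Log2 fold change of P30 over P3 (vertical axis) against the log2 mean CPM of the P30 and P3 libraries (horizontal axis) for 15642 genes. Cell cycle genes (blue) lie below 0 with few exceptions, interferon-stimulated genes (orange) mostly above 0 and ribosomal protein genes (green) mostly just below 0.

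Stress lists moved by less. Of 31 NRF2 targets and antioxidant enzymes, 23 rose and 6 fell against P3 (18 and 8 against P11). SLC7A11, the cystine importer, had 117, 122 and 111 CPM at P30 and 20, 22.5 and 22 CPM at P3 (log2 fold change 2.44, SE 0.0635). HMOX1, heme oxygenase 1, had 65, 63.8 and 57.3 CPM at P30 and 23, 21.2 and 19.9 CPM at P3, and GCLM, of glutathione synthesis, 69.7, 66.2 and 68 CPM at P30 and 28.8, 27.6 and 25.9 CPM at P3. Of 39 p53 targets, 13 rose (33.3%) and 14 fell (35.9%) against P3, close to the background in both directions. Against P11, 19 rose (48.7%) and 11 fell (28.2%), and against P24, 17 rose (43.6%) and 8 fell (20.5%), against 23.7% and 19.5% of all genes higher. Against P33, 4 were higher at P30 and 26 lower. GDF15, a stress-induced cytokine, had 52.3, 57 and 45.5 CPM at P30 and 23.7, 30.8 and 28.1 CPM at P3. PMAIP1, the pro-apoptotic protein NOXA, fell and had 9.76, 13.9 and 12.5 CPM at P30 and 31.9, 29.4 and 35.4 CPM at P3. Of 34 stress response genes of the endoplasmic reticulum and of translation, 17 rose and 10 fell (18 and 10 against P11). PSAT1, of serine synthesis, had 53.6, 52.8 and 53.5 CPM at P30 and 17.4, 16.8 and 16.4 CPM at P3, while SDF2L1, a chaperone partner of the endoplasmic reticulum, averaged 9.31 ± 0.61 CPM at P30 and 21.6 ± 4.3 CPM at P3.

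Secreted signalling proteins showed no common direction against P3 and were mostly below P33. Of 46 cytokines and growth factors, 20 rose and 15 fell against P3 (23 and 9 against P11), and 27 were lower at P30 than at P33. EREG, an EGF-receptor ligand, had 559, 553 and 563 CPM at P30 and 131, 123 and 131 CPM at P3. CXCL12, a chemokine of stromal cells, fell and had 38.8, 35.2 and 32.4 CPM at P30 and 207, 212 and 213 CPM at P3. IL6, a cytokine of the senescent secretome, fell (log2 fold change -0.83, SE 0.238), with 2.17, 3.26 and 1.6 CPM at P30 and 4.85, 4.68 and 3.22 CPM at P3, which overlap in 1 library each. CXCL8, interleukin 8, was at 1.26 ± 0.2 CPM at P30, 5.27 ± 1.3 CPM at P33 and 0.44 ± 0.076 CPM at P3. Of 6 IGF-binding proteins 5 rose and IGFBP6 fell, against both P3 and P11. IGFBP5 had 9300, 8750 and 10000 CPM at P30 and 2090, 1990 and 2100 CPM at P3, and IGFBP3 had 751, 812 and 773 CPM at P30 and 223, 264 and 240 CPM at P3.

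Cholesterol and fatty acid synthesis genes were lower in 29 of 32 cases against P3 and in 29 against P11, where the median was -1.10 and that against P3 was -0.65. INSIG1, which retains the SREBP activator in the endoplasmic reticulum, had 47, 45.2 and 33.7 CPM at P30 and 129, 127 and 134 CPM at P3. Its mean at P11 was 201 CPM. FDFT1, squalene synthase, was the only one that rose against P3. Against P33, 11 of the 32 were higher at P30 and 4 lower. Lysosomal genes went both ways, 12 rising and 17 falling of 41 (12 and 16 against P11). CTSH, a cathepsin, had 3.14, 3.37 and 1.91 CPM at P30 and 14.5, 14.7 and 16.3 CPM at P3. NPC1, the lysosomal cholesterol transporter, had 76.2, 77.7 and 77 CPM at P30 and 200, 225 and 202 CPM at P3.

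Ribosomal protein mRNAs depended on which early passage served as the baseline. Of 74 tested, 71 were lower at P30 than at P3 (median -0.53), 42 were lower than at P11 (median -0.18), and 6 were lower and 4 higher than at P24 (median 0.01). Against P33, 70 were higher at P30 and none lower (median 0.39). RPS25, of the small subunit, averaged 239, 142, 124, 114 and 91.9 CPM at P3, P11, P24, P30 and P33. RPL36, of the large subunit, averaged 216, 110, 102, 108 and 92.8 CPM in the same order, so that P3 stood apart from the other 4. Of the 74, 37 have no same-strand overlap, and 36 of those were lower than at P3. Of the 13 mitochondrially encoded mRNAs, 6 fell and MT-ATP8 rose against P3, while 2 fell and 3 rose against P11.

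Immediate early genes, which respond to serum and stress within minutes, were higher at P30 than at earlier passages more often than lower. Of 26, 15 rose and 4 fell at P30 against P3, 13 rose and 3 fell against P11, and 20 rose and none fell against P24. Against P33, 9 were higher at P30 and 10 lower. EGR1 had 132, 330 and 122 CPM at P30 and 13.9, 13.5 and 14.8 CPM at P3, a rise of 3.80 on the log2 scale (SE 0.319). FOS had 7.82, 20 and 4.39 CPM at P30 and 1.34, 1.52 and 2.3 CPM at P3 (2.73, SE 0.687, edgeR adjusted p = 0.00115). In both genes replicate 2 was the highest P30 library, and the groups did not overlap. DUSP6, a phosphatase that limits ERK signalling, was tighter, with 105, 124 and 108 CPM at P30 and 54.2, 51.5 and 53 CPM at P3.

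P30 and P33 also differed outside the cell cycle lists. ESM1, an endothelial proteoglycan, had 3.65, 3.8 and 3.51 CPM at P30 and 54.4, 39.4 and 55.1 CPM at P33 (log2 fold change -3.76, SE 0.133, edgeR adjusted p = 8.04e-18). GUCY1A2, a subunit of the nitric oxide receptor, had 7.25, 7.12 and 8.21 CPM at P30 and 103, 88.7 and 99.3 CPM at P33. LAMP3, a lysosomal membrane protein, had 3.02, 2.72 and 4.15 CPM at P30 and 31.9, 34.9 and 38 CPM at P33. All P30 libraries lay below all P33 libraries in these genes. PAPPA2, a protease of IGF-binding proteins, and SYT7, a calcium sensor of membrane fusion, averaged 1.18 ± 0.26 and 1.12 ± 0.28 CPM at P30 and 18.6 ± 2.6 and 17.3 ± 1.8 CPM at P33. TINAGL1, a matrix protein of basement membranes, was higher at P30 than at P33, with 7.82, 6.9 and 8.53 CPM at P30 and 1.2, 0.542 and 1.22 CPM at P33, but the difference from P3 did not pass (log2 fold change 0.05, SE 0.126, edgeR adjusted p = 0.752). Against P24, the largest falls at P30 included MEDAG, HAPLN1 and NFE2L3, and the largest rises FOS, EGR1, HAS3, DLX2 and SAMD11. HAPLN1, which links hyaluronan to proteoglycans, had 0.856, 0.652 and 0.957 CPM at P30 and 7.46, 8.82 and 7.61 CPM at P24. DLX2, a homeobox factor, had 6.85, 7.17 and 5.34 CPM at P30 and 0.828, 0.876 and 1.19 CPM at P24.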

How the data were processed

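Gene counts were analysed as the authors deposited them, in 1 table that also gives gene positions and names. Per the labels' protocols, poly(A) RNA was copied with random hexamers, amplified for 18 PCR cycles and sequenced on a DNBSEQ-T7, although 2 label fields name genomic DNA as the material. Per the submitters' processing notes, the tools named were FastQC 0.11.9, cutadapt 3.3, HISAT2 2.1.0, SAMtools 1.11, featureCounts 2.0.1 and DESeq2 1.34.0, on GRCh38. Counts covered whole genes, introns included. The passage libraries had no reads for 9429 genes enclosed by a gene on their strand, while 3950 of these were counted in the DOX and DMSO libraries, which were therefore left out. Of 11533 genes lying inside an opposite-strand gene only, 4665 had reads. Among tested genes, 4989 overlap another on the same strand, so their counts may be split.

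The 15 untreated libraries of 5 passages were fitted together in edgeR 4.0.16 under R 4.3.3, with TMM scaling, filterByExpr at a minimum count of 10, 1 mean per passage and 10 residual degrees of freedom. The 45902 genes removed were not tested. Quasi-likelihood tests of P30 over P3, P11, P24 and P33 were two-sided and adjusted by Benjamini-Hochberg over 15642 genes, and genes passed at 0.05. Libraries held 12946375 to 26349740 counts, and the common biological coefficient of variation was 5.04%. Replicates of a passage differed by more than sampling noise. On data simulated for P30 against P3 (15221 genes, 200 changed), 94% of 2-fold and 100% of 4-fold changes were recovered, with 5.08% false calls. Smaller changes were simulated too, and 187 of all 200 changes were recovered. Because far fewer genes changed there than passed in the data, it cannot speak for scaling or false calls in the data.

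The comparison, its members and the gene lists were chosen with earlier results of these data known, so counts over lists are descriptions, with no set test. Named genes were the 10 largest rises and falls of P30 against P3 (5 for P24, for P33, and for genes below or above all other passages), protein-coding, at 5 CPM or more in the higher group and without overlap of replicates. Up to 4 members with the largest changes per list and 23 panel genes were added. Others are said to be named after their values were seen, which also holds for members named as the few exceptions of a list. Some of the genes picked by these rules, E2F1 among them, are not given above. Alternatives were RLE and upper quartile scaling, no filter and a 10 CPM filter, DESeq2 1.42.0, other sets of libraries, a replicate block and leaving out each replicate. Promoters came from RefSeq (GRCh38.p14) and were matched by symbol, with 46 of 53 mitotic and 35 of 40 replication genes found. So were 27 of 35 kinetochore and 8 of 9 deoxynucleotide genes.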

Additional observations from a re-analysis of the deposited data

Results flagged for a closer look

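For 6 of the 155 named genes, P30 and P33 lay on opposite sides of P3, and the direct comparison of P30 with P33 passed (edgeR's quasi-likelihood test, Benjamini-Hochberg). Both effects use the same P3 libraries.

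ESM1, an endothelial proteoglycan, was at -0.92 at P30 and 2.84 at P33 relative to P3 on the log2 scale, a difference of -3.76 (adjusted p = 8.04e-18). PMAIP1, which encodes the pro-apoptotic protein NOXA, was at -1.42 at P30 and 0.79 at P33 relative to P3, a difference of -2.21 (adjusted p = 2.52e-15). IL6 was at -0.83 at P30 and 0.73 at P33, a difference of -1.56 (adjusted p = 1.76e-06).

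The other 3 ran the other way. EDN1, endothelin 1, was at 1.24 at P30 and -1.27 at P33 relative to P3, a difference of 2.51 (adjusted p = 9.83e-15). LYVE1, a hyaluronan receptor, was at 1.5 at P30 and -0.53 at P33, a difference of 2.04 (adjusted p = 2.31e-11). It had 7.76, 7.01 and 8.21 CPM at P30, against 1.73, 1.87 and 1.97 CPM at P33 and 2.65, 2.28 and 3.22 CPM at P3. CNN1, calponin 1, was at 0.51 at P30 and -0.63 at P33, a difference of 1.14 (adjusted p = 2.99e-14).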

How the results depend on the processing

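With only genes above 10 CPM, fewer genes entered the test and the counts fell to 6705 for P30 against P3 (3242 lower, 359 at least 2-fold higher, 326 at least 2-fold lower), 5283 for P33 (2657 higher, 2626 lower, 108 and 200 at least 2-fold higher and lower), 2093 lower for P24 (80 and 154), 240 and 233 at least 2-fold higher and lower for P11, 11 repair genes lower and 8 histone genes higher than at P3. Leaving out genes with a same-strand overlap was chosen after seeing the data and counts fewer genes. Of the 10653 tested genes that remained, 3056 were higher than at P3 (913 at least 2-fold) and 3809 lower (814 at least 2-fold). The balance of directions against P3 therefore differed from that over all genes tested. Above all other passages were 580 genes, and 36 ribosomal protein genes were lower than at P3. RLE and upper quartile scaling, no count filter, DESeq2, all 21 libraries and the 6-library fits moved no other main count by more than 1.5 times. Over single replicates left out, the calls ranged from 9414 to 9728 against P3, 6947 to 7179 against P11, 5445 to 5652 against P24 and 7543 to 8054 against P33, with 707 to 820 genes below and 780 to 933 above all other passages.

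Of 4714 recomputed directions of named genes, 6 turned, all of genes that had not passed. RB1 was at 0.03 with upper quartile scaling and 0.04 with the 10 CPM filter, CCND1 at 0.02 with either and -0.11 to 0.04 with single replicates left out, and TINAGL1 at -0.02 to 0.13 with single replicates left out. A further 48 no longer passed, and the cause was not tested. The replicate numbers did not pair the libraries (correlations of deviations -0.03 to 0.04). With the numbers as a replicate block, 10061 genes passed against P3, 7605 against P11, 6225 against P24 and 8325 against P33, and 832 and 895 genes were below and above all other passages, so no count moved by over 1.5 times. Genes below the count filter remain unmeasured at this depth.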

Other observations

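Several genes outside the lists were highest or lowest at P30, and were picked after their values were seen. PDE4B, a phosphodiesterase that breaks down cyclic AMP, had 139, 144 and 147 CPM at P30 and 27.6, 29.5 and 26 CPM at P3, and averaged 27.7, 30, 30.8, 143 and 66.2 CPM at P3, P11, P24, P30 and P33. LBH, a regulator of transcription in limb and heart development, had 138, 129 and 129 CPM at P30 and 39.3, 40.2 and 40.4 CPM at P3. HSPB7, a small heat shock protein of muscle, had 45.9, 47.6 and 41.6 CPM at P30 and 12.7, 15.3 and 12.3 CPM at P3. In each of these the P30 libraries lay above all others. C1orf198 averaged 219, 225, 260, 551 and 203 CPM at P3, P11, P24, P30 and P33.

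LAMA4, a laminin chain, had 78.1, 75.6 and 78.6 CPM at P30 and 336, 348 and 333 CPM at P3, and overlaps another gene on the same strand. DPYSL3, a cytoskeletal regulator of neurite growth, had 35, 35.9 and 39.4 CPM at P30 and 96, 94.1 and 99.4 CPM at P3. BMPER, a secreted protein that binds BMPs, had 13.4, 12.6 and 14.9 CPM at P30 and 64.8, 57.7 and 57.2 CPM at P3. DUSP4, a phosphatase of MAP kinases, had 23.7, 25 and 21.9 CPM at P30 and 54.6, 56.8 and 55.9 CPM at P3, the opposite direction to DUSP6. The P30 libraries lay below all others in these 4 genes.

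The lists that marked other cell types had few tested members, namely 6 of 12 for keratinocytes, 4 of 10 for endothelium, 4 of 12 for leukocytes, 4 of 10 for melanocytes and Schwann cells and 2 of 8 for adipocytes. Endothelial markers summed to 8.61 to 9.53 CPM at P30 and 10.4 to 11.7 CPM at P3, and adipocyte markers to 17.9 to 20.4 CPM at P30 and 30.2 to 34.2 CPM at P3. Keratinocyte markers summed to 315 to 325 CPM at P30 and 289 to 330 CPM at P3. Most of that came from PERP, with averages of 292 CPM at P30 and 287 CPM at P3. The melanocyte list summed to 74.3 to 78.3 CPM at P30 and 32 to 35.1 CPM at P3, nearly all of it from MITF, with averages of 75.1 CPM at P30 and 31.6 CPM at P3.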
